A study of Oryctolagus cuniculus with 6 samples.

Results

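The collagen chains of the rabbit tracheal mucosa were examined, taken as every row of the deposited gene table whose symbol is COL, a number, A and a number. This gave 38 of 29587 genes, and 30 of the 38 had enough counts to be tested. Gene expression was measured by polyA RNA-seq in New Zealand rabbits aged 3 months. In the 3 libraries of the high cuff pressure group, the mucosa had been injured with a 3.0 mm tube placed 13 cm deep, whose cuff was kept at 35 cmH2O for 2 h. The 3 control libraries have no stated handling, and neither the time of sampling nor any agent or allele is given for either group. The labels call the material epithelial cells, but the protocol names whole mucosa, and defining markers of smooth muscle (MYH11), fibroblasts (DCN), endothelium (PECAM1) and ciliated cells (FOXJ1) were present in all 6 libraries.

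Collagens are secreted proteins, apart from a few membrane-bound ones, whose alpha chains wind around each other into helical trimers. Fibrillar collagens form the load-bearing fibres of the submucosa, network-forming type IV collagen builds the sheet of every basement membrane, and FACIT collagens (fibril-associated collagens with interrupted triple helices) decorate the surface of fibres. Beaded filament collagens link fibres to cells, transmembrane collagens sit in the cell surface, and a separate set makes up the hyaline cartilage of the tracheal rings.

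COL21A1, a FACIT chain described in blood vessel walls and other smooth muscle-rich tissue, was the collagen with the clearest difference and fell 4.49-fold with high cuff pressure. No collagen chain rose past the threshold. Within type IV collagen the chains parted: COL4A1 and COL4A2 had higher group means with high cuff pressure, while COL4A3, COL4A4, COL4A5 and COL4A6 had lower ones. Levels of the main fibrillar chains COL1A1, COL1A2 and COL3A1 overlapped between the groups. Of the 30 chains tested, 0 were higher and 1 was lower (edgeR adjusted p under 0.05 in a quasi-likelihood fit, corrected by Benjamini-Hochberg over all 13724 genes tested). Over all genes 3.67% were called higher and 1.62% lower, so the share of chains called lower was close to the background. At an unadjusted p under 0.05 there were 4 chains higher and 5 lower, near the 15.6% and 13.6% of all genes at that level. DESeq2 gave an adjusted p to 29 chains and called 2 higher, COL27A1 and COL5A3, and 2 lower, COL21A1 and COL4A6, where it called 10.7% of all genes higher and 8.55% lower. The chains' shares under DESeq2 were thus no larger than the background.

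The median log2 fold change was -0.26 over the 30 chains and -0.01 over all genes tested. The 3 libraries of each group did not overlap for 2 chains that were higher and 6 that were lower, against 18.6% and 18.7% of all genes tested. Library totals ran from 10501734 to 14415754 counts, and collagen chains took 0.0694% to 0.353% of them. The lowest share was in high cuff pressure replicate 1. That library also stood apart in 6 smooth muscle markers, which summed to 473.4 CPM against 4079.9 to 8882.3 CPM in the other 5 libraries. It was lowest in 9 fibroblast markers too. These summed to 172, 626.1 and 666.8 CPM with high cuff pressure and 838.4, 931.9 and 769.8 CPM in the controls, without overlap. By single marker, 3 of the 9 lay below every control and 6 overlapped, where 18.7% of all genes lay below. The part of fibroblast content in the chains' values was not tested. In bulk tissue, fewer cells of a type and less RNA per cell cannot be told apart. Without high cuff pressure replicate 1 the median over the chains was 0.10, and edgeR called 3 chains higher (COL4A2, COL15A1 and COL5A3) and 2 lower (COL21A1 and COL4A6), near the 9.68% and 8.97% of all genes called in that fit. No chain was called without high cuff pressure replicate 2, control replicate 2 or control replicate 3, fits in which 4, 0 and 0 genes were called over the whole table.

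**Figure D1:**
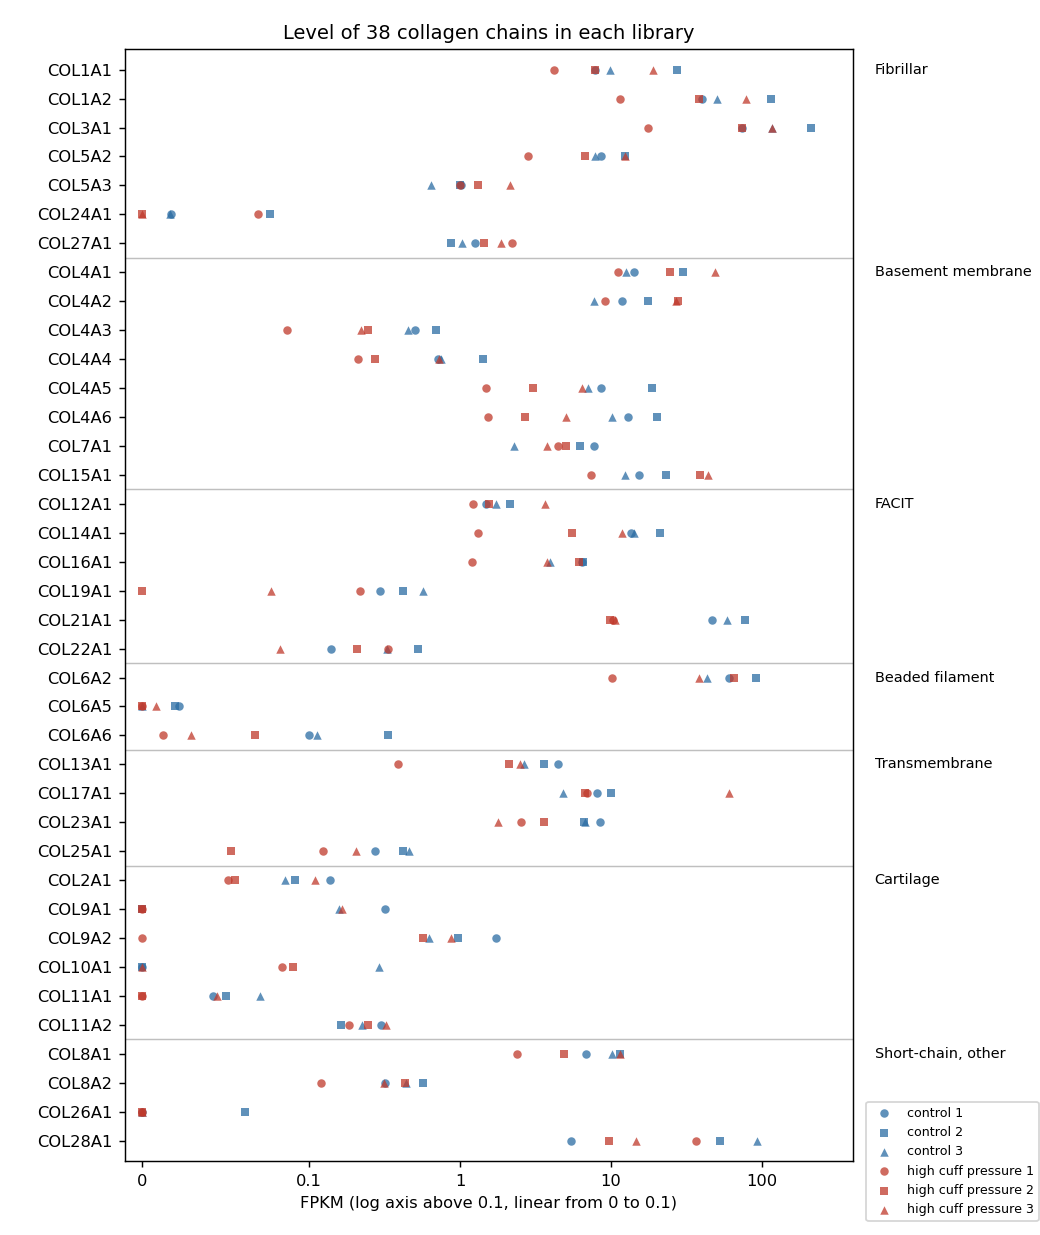
Each point is the FPKM of a collagen chain (vertical axis, by class) in a single library, with blue for the 3 control and red for the 3 high cuff pressure libraries. The horizontal axis is logarithmic above 0.1 and linear below. COL3A1 reached 212 FPKM and the cartilage chain COL2A1 at most 0.138 FPKM.

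Compared per length of transcript, fibrillar chains made up the largest class of collagen transcripts in every library, from 26.5% of the summed collagen FPKM in high cuff pressure replicate 1 to 47.6% in control replicate 2. Basement membrane chains came to 23.8%, 29.3% and 25.8% in high cuff pressure replicates 1, 2 and 3 and to 19.4%, 15.3% and 11.1% in controls 1, 2 and 3. Their share was thus larger in every high cuff pressure library than in any control. Their summed level overlapped between the groups, at 35.3, 102 and 135.9 FPKM with high cuff pressure and 71.8, 118.1 and 53.3 FPKM in the controls. FACIT chains made up 9.80%, 6.68% and 5.71% with high cuff pressure and 18.6%, 14% and 16.5% in the controls, the opposite order. A single chain, COL21A1, gave most of the control share. It made up 6.92%, 2.82% and 2.02% with high cuff pressure and 12.6%, 10.1% and 12.2% in the controls. Shares within a library sum to a fixed total, so a rise in one class lowers the others.

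**Figure D2:**
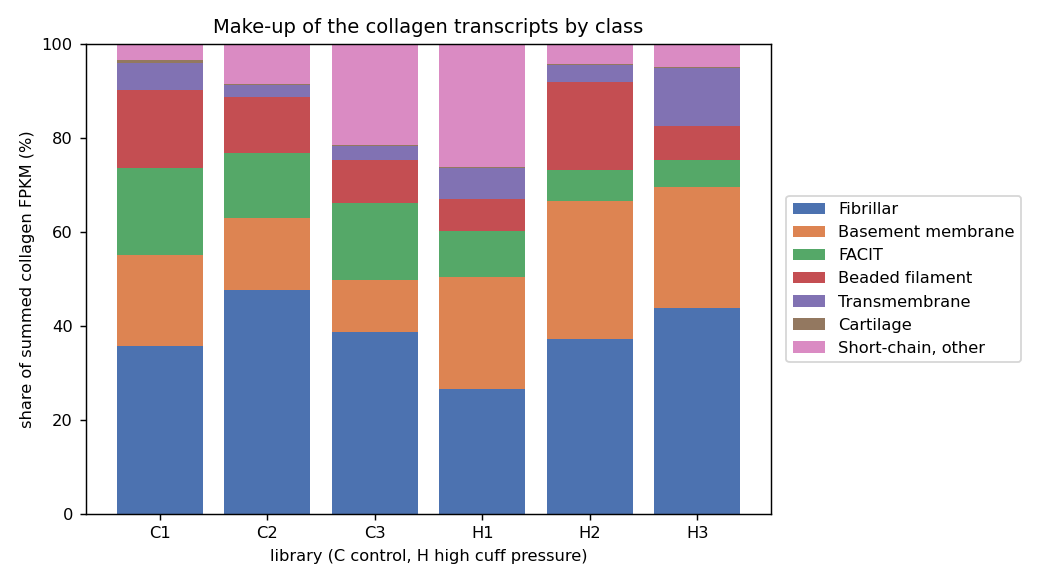
Stacked bars give the share of each collagen class in the summed collagen FPKM of a library, in percent, for controls (C1 to C3) and high cuff pressure (H1 to H3). The FACIT share is 14% to 18.6% in controls and 5.71% to 9.80% with high cuff pressure. COL21A1 alone is 10.1% to 12.6% in controls and 2.02% to 6.92% with high cuff pressure. The short-chain share is largest in H1 (26.2%) and C3 (21.4%).

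Fibrillar collagens were represented by 7 rows. COL3A1, the chain of type III collagen of pliable tissue, had the highest level, with 93.8, 434.7 and 606.5 CPM in high cuff pressure replicates 1, 2 and 3 and 339.0, 835.4 and 460.7 CPM in the controls. COL1A2, a chain of type I collagen, had 67.3, 249.5 and 451.9 CPM with high cuff pressure and 204.5, 493.0 and 221.0 CPM in the controls. Its partner COL1A1 had 37.4, 77.0 and 165.6 CPM against 60.4, 180.0 and 65.5 CPM. All of these overlapped between groups, and high cuff pressure replicate 1 was the lowest library for each. The log2 fold changes were -0.53 ± 0.63 (SE) for COL3A1, -0.26 ± 0.64 for COL1A2 and -0.13 ± 0.60 for COL1A1, with edgeR adjusted p of 0.61, 0.82 and 0.91. The sign for COL1A1 and COL1A2 depended on a single library, at 0.26 and 0.20 without high cuff pressure replicate 1 and 0.57 and 0.27 without control replicate 2.

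The make-up of the fibres' transcripts varied less than their level. COL3A1 per COL1A2 (ratio of FPKM within a library) was 1.53, 1.91 and 1.47 with high cuff pressure and 1.82, 1.86 and 2.29 in the controls, and COL1A1 per COL1A2 was 0.364, 0.202 and 0.240 against 0.194, 0.239 and 0.194. Both ratios overlapped between the groups. COL5A2, a chain of the type V collagen that nucleates type I fibrils, had 38.5 ± 23.8 CPM (SD, n = 3) against 38.7 ± 8.32 CPM.

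The less abundant fibrillar chains COL5A3 and COL27A1, named after their values were seen, were the chains whose high cuff pressure libraries all lay above the controls. COL5A3, another type V chain, had 9.07, 13.1 and 18.9 CPM against 8.03, 6.63 and 4.30 CPM (a log2 change of 1.12 ± 0.38 SE, edgeR adjusted p = 0.11). COL27A1, a fibrillar chain known from cartilage and skeletal growth, had 11.9, 8.59 and 9.85 CPM against 5.90, 3.47 and 4.15 CPM (1.17 ± 0.33 SE, edgeR adjusted p = 0.074). Neither passed the threshold. COL24A1 had 4 counts over the high cuff pressure group and 7 over the controls and was not tested.

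**Figure D3:**
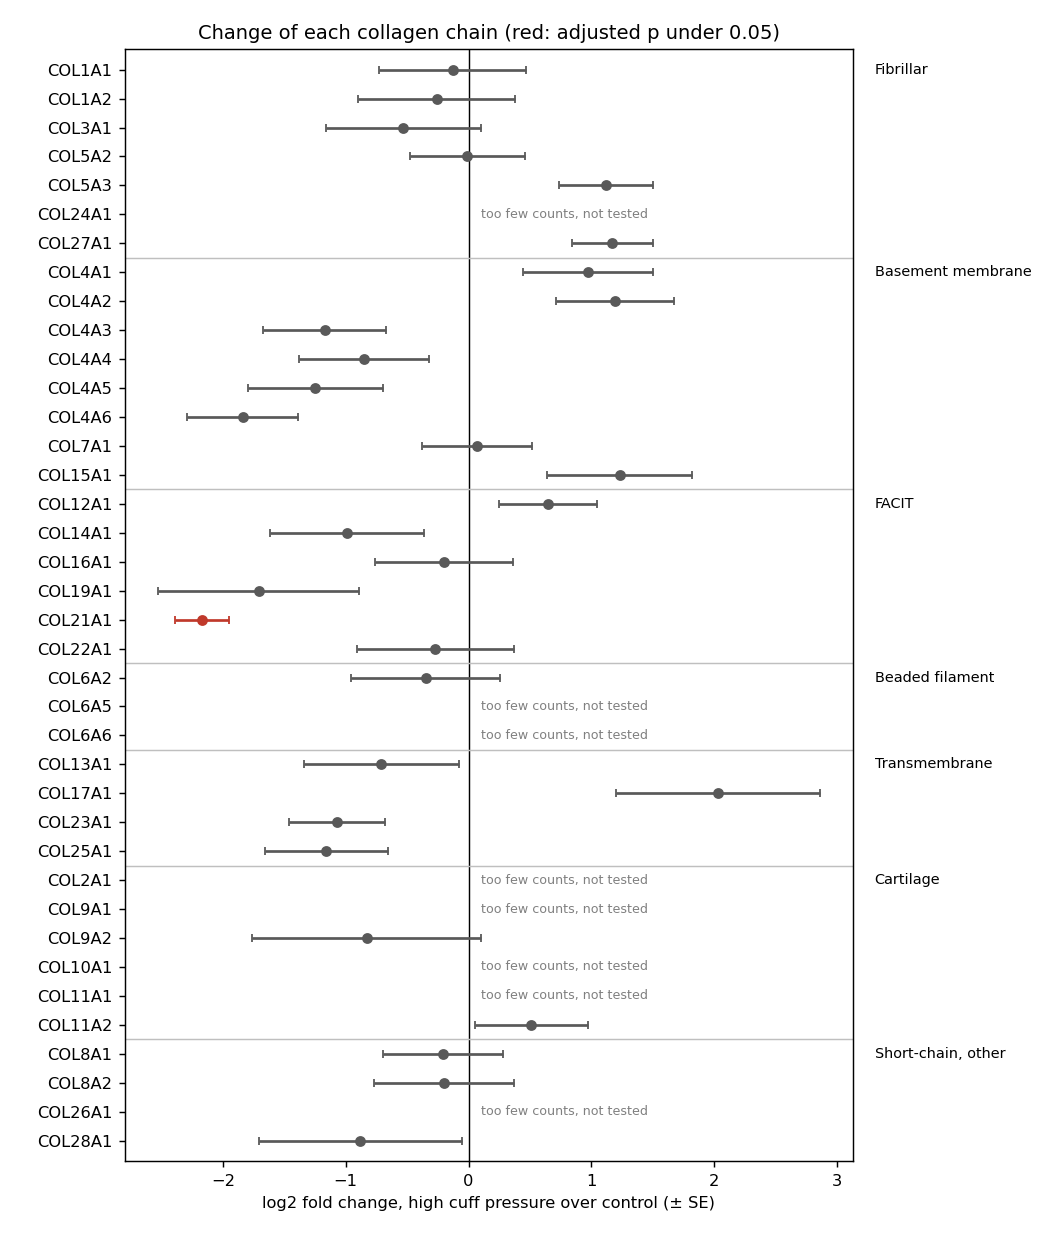
Points give the log2 fold change of each tested chain, high cuff pressure over control, with its standard error as bars, and COL21A1 at -2.17 is the chain in red, the only one with an edgeR adjusted p under 0.05. Of the 30 tested chains, 9 lie above 0 and 21 below, and 8 chains with too few counts are marked.

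Type IV collagen is laid down as trimers of COL4A1 with COL4A2 in all basement membranes, and as restricted trimers of COL4A3, COL4A4 and COL4A5 or of COL4A5 and COL4A6 in some, the last known around smooth muscle and under certain epithelia. COL4A6 had 9.96, 19.4 and 31.9 CPM in high cuff pressure replicates 1, 2 and 3 and 72.9, 97.9 and 49.1 CPM in the controls. COL4A5 had 9.76, 22 and 40.9 CPM against 48.5, 90.9 and 34.4 CPM. All high cuff pressure libraries lay below the controls for COL4A6, and those for COL4A5 overlapped through a single library. COL4A6 missed the threshold at a log2 fold change of -1.84 ± 0.45 SE (edgeR adjusted p = 0.055), and COL4A5 stood at -1.25 ± 0.55 SE (adjusted p = 0.17). COL4A6 passed under 5 of the 15 alternatives, at 0.036 with edgeR once high cuff pressure replicate 1 was left out and at 0.0013 with DESeq2, and its adjusted p over all alternatives ran from 0.0013 to 0.17.

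COL4A1 had 64.6, 156.5 and 279.0 CPM with high cuff pressure and 71.9, 129.1 and 54.3 CPM in the controls. COL4A2 had 79.0, 264.5 and 227.9 CPM against 88.6, 111.4 and 49.7 CPM. For each, high cuff pressure replicates 2 and 3 exceeded every control, and replicate 1 lay among them. The log2 fold changes were 0.97 ± 0.53 SE for COL4A1 and 1.19 ± 0.48 SE for COL4A2 (edgeR adjusted p = 0.26 and 0.15). Without high cuff pressure replicate 1, COL4A2 passed at 1.57 (edgeR adjusted p = 0.027), and without high cuff pressure replicate 3 the value of COL4A1 was 0.38.

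The balance between these chains within each library set the groups far apart. The summed FPKM of COL4A5 and COL4A6 per that of COL4A1 and COL4A2 was 0.149, 0.110 and 0.150 in high cuff pressure replicates 1, 2 and 3, and 0.82, 0.822 and 0.845 in the controls. The groups did not overlap, the controls lay within a narrow band, and the control ratio was 6.15-fold that with high cuff pressure (ratio of geometric means). High cuff pressure replicates 1 and 3 had nearly the same ratio, and the part of cell make-up in it was not tested. This ratio was chosen after the values of its chains were seen and is given with no test; 3 libraries against 3 allow an exact permutation p of 0.1 at the smallest. It does not depend on how libraries are scaled.

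COL4A3 and COL4A4 were rare, and their ratio to COL4A1 and COL4A2 moved the same way, at 0.0146, 0.00990 and 0.0124 with high cuff pressure and 0.0466, 0.0444 and 0.0591 in the controls. COL4A3 had 34 counts over the high cuff pressure group and 100 over the controls (log2 fold change -1.17, edgeR adjusted p = 0.16), and COL4A4 had -0.85 (adjusted p = 0.31). COL4A6 was also lower relative to COL4A5 itself, at 1.02, 0.886 and 0.783 against 1.51, 1.08 and 1.43 (ratio of FPKM), without overlap. These ratios, too, were chosen after values were seen.

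**Figure D4:**
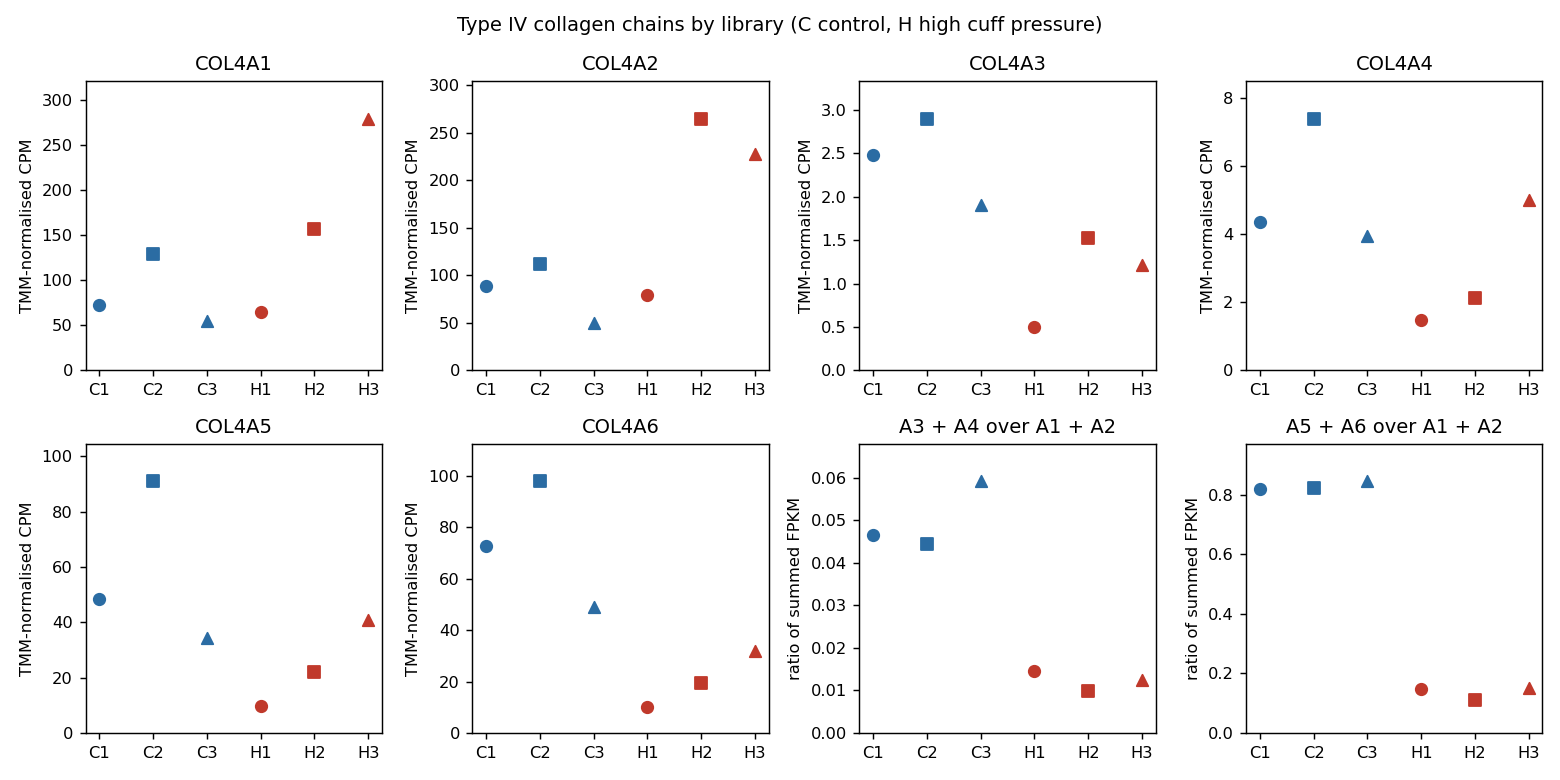
Panels show the TMM-normalised CPM of the type IV chains by library, and in the last panels the ratio of the summed FPKM of COL4A3 and COL4A4, or of COL4A5 and COL4A6, to that of COL4A1 and COL4A2 (blue C1 to C3 controls, red H1 to H3 high cuff pressure). The COL4A5 and COL4A6 ratio is 0.82 to 0.845 in controls and 0.110 to 0.150 with high cuff pressure.

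Marker genes of endothelium and smooth muscle were read beside the type IV chains. The 8 endothelial markers summed to 495.7, 1014.4 and 1095.3 CPM with high cuff pressure and to 601.4, 728.1 and 262.8 CPM in the controls. Past the threshold, 1 of the 8, PECAM1, rose (log2 fold change 1.53, edgeR adjusted p = 0.041), where 3.67% of all genes did. Of the 6 smooth muscle markers 0 passed with edgeR and 0 had an unadjusted p under 0.05, against 29.3% of all genes at that level. Their median log2 fold change was -0.89. Per PECAM1, the summed FPKM of COL4A1 and COL4A2 was 1.24, 2.06 and 2.88 against 2.28, 3.93 and 2.84, and per MYH11 that of COL4A5 and COL4A6 was 0.135, 0.0361 and 0.0366 against 0.0501, 0.0519 and 0.0447. Over the whole lists, the COL4A5 and COL4A6 sum overlapped between the groups per each of the 6 smooth muscle markers. Per ACTA2, ACTG2, MYH11, DES and LMOD1 the overlap came from high cuff pressure replicate 1 alone, which lay above every control. High cuff pressure replicates 2 and 3 lay below every control per these markers, but not per SYNPO2. The COL4A1 and COL4A2 sum overlapped per 7 of the 8 endothelial markers and was higher in every high cuff pressure library per EMCN, at 3.4, 4.58 and 4.63 against 0.925, 1.88 and 1.16. Of the 8 endothelial markers, 6 had positive log2 fold changes, PECAM1 among them, and the median over the list was 0.82. EMCN (-0.70) and KDR (-0.07) went the other way. The part of cell make-up in the type IV pattern was not tested.

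The type IV genes lie in pairs that are read in opposite directions. In the deposited coordinates, of a genome build that the labels and headers do not name, COL4A1 (chromosome 8, 111526224 to 111654907, minus strand) and COL4A2 (chromosome 8, 111654339 to 111791972, plus strand) overlap by 569 bp at their starts. COL4A6 (chromosome X, 56776998 to 57090496, minus strand) and COL4A5 (chromosome X, 57091838 to 57346246, plus strand) are separated by 1341 bp. The strand setting of the counting is not known, so reads in the overlap of COL4A1 and COL4A2 cannot be assigned with certainty.

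Other chains of the basement membrane zone were COL15A1 and COL7A1. COL15A1, a proteoglycan collagen beneath endothelium and around muscle, had 37.6, 218.9 and 218.3 CPM with high cuff pressure and 68.1, 86.9 and 47.2 CPM in the controls (log2 fold change 1.23 ± 0.59 SE, edgeR adjusted p = 0.21). The first high cuff pressure replicate lay below every control and the others above them. Without that library COL15A1 rose by 1.70 (edgeR adjusted p = 0.016). COL7A1, the chain of the anchoring fibrils that hold an epithelium to its stroma, had 51.8, 64.1 and 42.7 CPM against 77.8, 53.3 and 19.6 CPM (0.07 ± 0.45 SE, edgeR adjusted p = 0.93).

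Among the 6 FACIT chains, COL21A1 (ENSOCUG00000012337, chromosome 12, 45977386 to 46101862) had 37.2, 39.3 and 37.6 CPM in high cuff pressure replicates 1, 2 and 3 and 146.8, 207.1 and 158.4 CPM in the controls. The high cuff pressure libraries were nearly equal, and each lay below every control. COL21A1 fell by 2.17 on the log2 scale (SE 0.22, edgeR adjusted p = 0.014). The value stayed between -2.58 and -2.01 in all 15 alternatives. It missed the threshold when high cuff pressure replicate 2 (edgeR adjusted p = 0.063), control replicate 2 (0.069) or control replicate 3 (0.07) was left out.

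In the controls COL21A1 was among the most abundant collagen transcripts per length, at 61.1 ± 15.5 FPKM, next to 68.3 ± 39.9 for COL1A2 and 65.1 ± 24.0 for COL6A2, values that did not differ beyond their spread. With high cuff pressure it was at 10.2 ± 0.403 FPKM. Among the high cuff pressure libraries MYH11, the smooth muscle myosin, ranged from 163 to 2225.2 CPM and COL3A1 from 93.8 to 606.5 CPM. The narrow range of COL21A1 was not particular to it: FAP, a protease of activated fibroblasts, had 62.4, 59.4 and 67.5 CPM and MMP2 32.3, 38.4 and 45.8 CPM, and both also lay below every control. COL21A1 per COL1A2 was 0.894, 0.255 and 0.135 with high cuff pressure against 1.16, 0.681 and 1.16 in the controls, and overlapped between the groups. Without replicate 1 this ratio did not overlap. COL21A1 per MYH11 was 0.462, 0.0620 and 0.0342 against 0.110, 0.103 and 0.153. The groups overlapped for the ratio to each of the 6 smooth muscle markers, and high cuff pressure replicate 1 lay above every control for each of them. The high cuff pressure libraries thus went both ways. Replicates 2 and 3 were below every control per ACTA2, ACTG2, MYH11, DES and LMOD1, but not both per SYNPO2. The part of smooth muscle content in the COL21A1 value was not tested.

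COL14A1, the FACIT chain of mature dense connective tissue, had 8.97, 41.7 and 78.9 CPM with high cuff pressure against 79.8, 105.5 and 71.8 CPM (a log2 change of -0.99 ± 0.63 SE, edgeR adjusted p = 0.33). COL12A1, a FACIT chain of tissue under tension and of repair, had 14.7, 20.7 and 42.9 CPM against 15.4, 18.9 and 15.6 CPM (0.65 ± 0.40 SE, adjusted p = 0.31). Neither passed, but their balance differed in every library: the ratio of COL14A1 to COL12A1 (FPKM) was 1.08, 3.55 and 3.25 with high cuff pressure and 9.16, 9.84 and 8.12 in the controls, 3.89-fold higher in the controls. This ratio was also chosen after the values were seen. The rest were COL16A1 (-0.20), COL22A1 (-0.27) and COL19A1 (-1.71, edgeR adjusted p = 0.21). COL19A1 had 11, 0 and 5 counts against 15, 24 and 29, where a count of 0 allows up to 0.353 CPM in that library.

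**Figure D5:**
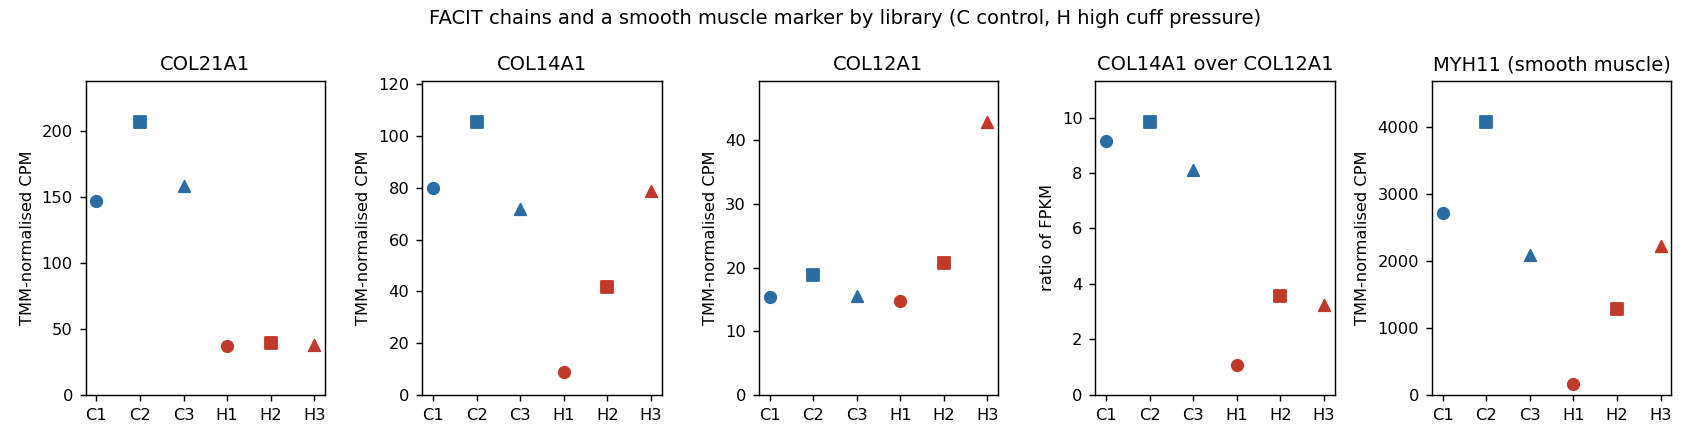
Panels give the TMM-normalised CPM of COL21A1, COL14A1, COL12A1 and the smooth muscle gene MYH11 and the FPKM ratio of COL14A1 to COL12A1 by library (blue C1 to C3 controls, red H1 to H3 high cuff pressure). COL21A1 lies at 37.2 to 39.3 CPM in all high cuff pressure libraries, while MYH11 spreads from 163 to 2225.2 CPM in them.

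Beaded filament collagen was carried by COL6A2, a chain of type VI collagen, with 23.2, 165.2 and 85.9 CPM against 121.2, 153.7 and 74.1 CPM (a log2 change of -0.35 ± 0.61 SE, edgeR adjusted p = 0.74). COL6A6 had 1, 5 and 3 counts with high cuff pressure and 8, 30 and 9 in the controls, and COL6A5 at most 2 counts in any library; neither was tested. No row carried the symbols COL5A1, COL6A1, COL6A3, COL6A4, COL9A3, COL18A1 or COL20A1, and these chains were not analysed here.

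Of the 4 transmembrane chains, COL17A1 anchors basal epithelial cells to their basement membrane as part of the hemidesmosome. It had 32.6, 34.7 and 275.5 CPM with high cuff pressure against 32.6, 34.6 and 16.8 CPM in the controls, so that a single library, high cuff pressure replicate 3, set its mean apart. The log2 fold change was 2.03 ± 0.83 SE (edgeR adjusted p = 0.15), and 0.27 without that replicate. KRT5, the basal cell keratin, had 387.5, 945 and 2373.6 CPM against 326.5, 259.4 and 124.5 CPM, again highest in replicate 3. COL17A1 per KRT5 (FPKM) was 0.0957, 0.0417 and 0.132 against 0.113, 0.152 and 0.153 and overlapped. Per each of the 5 basal cell markers, the groups overlapped for 4, and per NGFR all high cuff pressure libraries were higher. The 5 markers summed to 699.4, 1532.9 and 3848.5 CPM against 643.6, 545.7 and 301.1 CPM. KRT5 (2.38) and AQP3 (1.96) carried this sum, while TP63 (0.03), NGFR (0.01) and DLK2 (0.11) overlapped between the groups, and the median over the list was 0.11 on the log2 scale. The part of these markers in the COL17A1 value was not tested. Of 5 hemidesmosome partner genes, 0 passed with edgeR and 3 had an unadjusted p under 0.05, against 29.3% of all genes. These went both ways: LAMB3, a chain of the anchoring laminin, had 1.37 and ITGB4, an integrin subunit, 0.80 (edgeR adjusted p = 0.068 and 0.14), while DST, which links keratin to the hemidesmosome, had -0.99 (adjusted p = 0.079), with every high cuff pressure library below the controls.

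The other transmembrane chains all had lower values. COL23A1 had 4.83, 7.65 and 3.33 CPM against 14.1, 9.27 and 9.62 CPM (a log2 change of -1.07 ± 0.39 SE, edgeR adjusted p = 0.12), and COL25A1, known for a role in motor nerve supply to muscle in mice, had 0.986, 0.471 and 1.59 CPM against 1.88, 2.45 and 2.70 CPM (-1.16 ± 0.50 SE, adjusted p = 0.17). For both, the groups did not overlap. COL13A1, found at cell junctions and the nerve-muscle synapse, had -0.71 (adjusted p = 0.47).

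Cartilage collagens were close to absent. COL2A1, the fibrillar chain that defines hyaline cartilage, had 3, 3 and 8 counts in high cuff pressure replicates 1, 2 and 3 and 8, 6 and 5 in the controls. COL9A1, its surface partner, had 0, 0 and 8 counts against 12, 0 and 6, COL11A1 at most 5 and COL10A1, of hypertrophic cartilage, at most 7. COL9A2 had 0, 10 and 21 counts against 33, 21 and 12 (log2 fold change -0.83 ± 0.93 SE, edgeR adjusted p = 0.58), and COL11A2 13, 16 and 29 against 21, 13 and 16 (0.51 ± 0.46 SE, adjusted p = 0.49). The 6 chains summed to 1.77 to 6.58 CPM per library.

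Other cartilage genes ranged from no counts to well above a trace in the same libraries. The proteoglycan core gene ACAN had 9, 9 and 87 counts with high cuff pressure and 42, 7 and 5 in the controls. It was thus highest in high cuff pressure replicate 3 and control replicate 1, where COL2A1 stood at 8 counts. SOX9 (104 and 154 counts) and COL9A1 (8 and 12) were also highest there, while HAPLN1 and EPYC had their highest counts in control replicate 2. Of 11 cartilage markers with a row, UCMA and SCRG1 had no counts, while MATN1, a cartilage matrilin, reached 89.3, 57.7 and 74.2 CPM against 43.2, 21.0 and 27.3 CPM (edgeR adjusted p = 0.058). Their summed level was 77.7 to 117.4 CPM with high cuff pressure and 48.1 to 72.7 CPM in the controls, and MATN1 made up the greater part of it in each high cuff pressure library. By COL2A1, no library held more than a trace of cartilage.

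The last group held short-chain and other collagens. COL28A1, a chain known from the sheath of peripheral nerves in mice, had 141.4, 41.8 and 55.3 CPM with high cuff pressure and 18.4, 151.9 and 267.4 CPM in the controls (log2 fold change -0.88 ± 0.83 SE, edgeR adjusted p = 0.51). The groups overlapped widely, and among the high cuff pressure libraries replicate 1 was the highest. Of 7 Schwann cell markers 0 passed with edgeR and 3 had an unadjusted p under 0.05, against 29.3% of all genes at that level. Their summed level, 30.1, 26.9 and 58.1 CPM against 57.1, 84.1 and 44.2 CPM, did not follow the order of COL28A1. COL8A1, a chain of vessel walls, had 11.1, 25.3 and 51.8 CPM against 27.7, 39.4 and 35.0 CPM (-0.21 ± 0.49 SE, adjusted p = 0.81). COL8A2 was at most 1.18 CPM and COL26A1 had 1 count in all.

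The enzymes and carriers that make, export and cross-link collagen were read from a list of 33 genes, of which 26 had a row. With edgeR, 0 rose and 1 fell, where 3.67% and 1.62% of all genes did. At an unadjusted p under 0.05 there were 9 higher and 2 lower, against 15.6% and 13.6% of all genes, and the median log2 fold change was 0.49. The gene that fell was MIA3 (TANGO1), the receptor that loads bulky procollagen into carriers leaving the endoplasmic reticulum, with 107.7, 54.6 and 68.9 CPM against 161.8, 194.5 and 202.0 CPM (a log2 change of -1.27 ± 0.29 SE, edgeR adjusted p = 0.048). Every high cuff pressure library was below every control.

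Groups did not overlap for 8 higher and 3 lower of these 26 genes, against 18.6% and 18.7% of all genes, the former including the lysyl hydroxylases PLOD1 (0.86, edgeR adjusted p = 0.053) and PLOD3 (1.00, adjusted p = 0.066), the prolyl hydroxylase P3H1 (1.12, adjusted p = 0.069) and the prolyl isomerase PPIB (1.31, adjusted p = 0.055). PLOD2, the lysyl hydroxylase of the telopeptides, went the other way at 7.63 ± 2.58 against 20.1 ± 8.24 CPM (-1.40, adjusted p = 0.079). None of these passed. P4HA1, a prolyl 4-hydroxylase subunit, had 0.09 (adjusted p = 0.82) and the cross-linking enzyme LOX -0.45 (adjusted p = 0.45). The collagen-binding matrix protein SPARC had -0.11 (adjusted p = 0.91). SERPINH1, also meant to be given, had no row under that symbol.

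Of 7 tested genes for collagen-degrading proteases, 3 rose and 1 fell, where 3.67% and 1.62% of all genes did. The collagenases MMP1 (0.873 ± 0.585 CPM in the controls and 66.7 ± 68.8 CPM with high cuff pressure, edgeR adjusted p = 0.020) and MMP13 (4.21 on the log2 scale, adjusted p = 0.046) and the gelatinase MMP9 (6.31, adjusted p = 0.032) rose, and MMP2 fell by 1.08 on the log2 scale (adjusted p = 0.047). In the controls MMP1 had 18, 10 and 6 counts, MMP13 had 0, 6 and 4, and MMP9 had 0, 2 and 3. The genes that rose thus passed the count filter through the high cuff pressure group, which favours a call of higher. Their number cannot be weighed against the share over all genes. All 7 neutrophil markers, MMP9 among them, also rose, where 3.67% of all genes did. They summed to 2531.3, 1347.5 and 640.2 CPM against 12.1, 4.76 and 22.8 CPM. CXCR1 and FPR1, also in this list, had at most 5 and 6 counts in a control library. Like MMP9, they passed the filter through the high cuff pressure group, so the number of markers called cannot be weighed against that share either. The part of the neutrophil markers in the protease values was not tested. Of 8 collagen receptor genes, 0 passed with edgeR and 0 had an unadjusted p under 0.05, against 29.3% of all genes at that level. Their log2 fold changes ran from -0.83 to 0.52, and DDR1, a receptor kinase for collagen in epithelium, had the highest. Of 10 collagen-binding matrix genes, 0 rose and 2 fell with edgeR, against 3.67% and 1.62% of all genes. They were LUM (-1.86, adjusted p = 0.046), a proteoglycan that spaces fibrils, and ECM2 (-2.24, adjusted p = 0.047).

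Transcript length moved with the comparison over all genes: the median log2 fold change was 0.20 among the 3431 genes with the shortest models and -0.15 among the 3431 with the longest, above 3447 bp. COL21A1 has a model of 3234 bp, and those of the type IV chains run from 5071 bp (COL4A3) to 7728 bp (COL4A2). With a smooth trend over length removed, an alternative chosen after seeing the data, COL21A1 had -2.06 (edgeR adjusted p = 0.013) and the median over the chains was -0.10.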

How the data were processed

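The deposited gene table gives raw read counts per gene for 6 libraries and, per the file headers, FPKM values made by the authors; model lengths were derived from their ratio. Per the submitters' processing notes the tools were HISAT2 2.0.4, StringTie 1.3.3b and edgeR, with no role stated; neither the labels nor the headers name the genome build or counting options. The members, classes and lists were chosen with earlier results of these data known. Control replicate 3 is titled S4, and the labels place all libraries in 1 batch. The labels state n = 3 per group, but p-values measure only the spread between these libraries.

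The count test was edgeR 4.0.16 (R 4.3.3): filterByExpr (13724 genes kept), TMM, robust glmQLFit, glmQLFTest and Benjamini-Hochberg adjustment at 0.05. CPM are TMM-normalised, and standard errors were obtained from the fold change and its F statistic. The test was tried on simulated counts with independent genes and large planted changes, which is no measure of its power for the collagen chains. Alternatives were DESeq2 1.42.0, limma-voom (limma 3.58.1), other scaling and filters, no robust estimation, a replicate block, leaving out each library, and a length correction (lowess span 0.5). Pairs of libraries within a group differed beyond counting error (chi-square of 56.1 to 137.3 for each degree of freedom). A count of 3 is the floor used for a library at 0. Values in all libraries are given for chains past the threshold, the chains of highest FPKM in each class and a list of main chains; other chains are named after their values were seen.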

Additional observations from a re-analysis of the deposited data

How the results depend on the processing

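The count of collagen chains higher was 0 in the main setting, 2 with DESeq2 and 0 to 3 with 1 library left out; the count lower was 1, 2 with DESeq2, without a filter and with limma-voom, 3 with total counts only, and 0 to 2 with 1 library left out. Over all genes the 725 calls (503 higher, 222 lower) became 2631 with DESeq2 (1461 and 1170), 1630 with total counts only (389 and 1241), 244 with the replicate number as a block (198 and 46), and 0 to 2623 with 1 library left out (higher 0 to 1362, lower 0 to 1261). Total counts shifted the median of all genes by -0.39. Under the replicate block COL21A1 had -2.15 (edgeR adjusted p = 0.013). Libraries sharing a number did not deviate together (r = -0.28, -0.20 and -0.23). No high cuff pressure library correlated best with the control of its own number. These r values come from few libraries centred on their group mean, which binds them to each other, so they cannot exclude a pairing. What the number stands for is not known. COL7A1 reversed to -0.29 with total counts, and COL1A1 (0.19), COL5A2 (0.18) and COL16A1 (0.07) with the length trend removed. With 1 library left out, values ran from -0.83 to 0.57 for COL1A1, -0.95 to 0.27 for COL1A2, -0.54 to 0.39 for COL5A2, -0.31 to 0.54 for COL7A1, -1.08 to 0.11 for COL6A2, -0.90 to 0.19 for COL8A1, -0.63 to 0.18 for COL8A2, -0.85 to 0.24 for COL16A1 and -0.76 to 0.19 for COL22A1. The other 21 chains kept their sign in all alternatives; the causes were not tested.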
